A study of Mus musculus with 6 samples.

Results

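The genes of the extracellular matrix proteases and of their tissue inhibitors were described in biliary epithelial cells of mouse liver, from mice with and without a Cre transgene that targets the transcription factor gene Sox9. The members were all genes of the table whose symbol begins with Mmp and a number, Adam and a number, or Adamts (the ADAMTS-like genes, Adamtsl, included), together with Timp1 to Timp4. The rule found 64 genes among 25302, namely 16 matrix metalloproteinases (MMPs), 20 ADAMs, 24 ADAMTS and ADAMTS-like genes and 4 TIMPs. RNA was sequenced from 3 samples labelled Control, of genotype Sox9fl/fl, and 3 labelled Sox9cKO, of genotype Sox9fl/fl:AlbCre+/-. Both groups carry floxed Sox9 alleles, and only the Sox9cKO group carries the Cre recombinase, which in AlbCre mice is driven by the albumin promoter. The control genotype lists no Cre. The labels give neither the age nor the sex of the mice, nor whether a sample is one animal or a pool.

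MMPs are zinc-dependent endopeptidases that are made as inactive proenzymes and cleave collagens, laminins, fibronectin and cell-surface proteins. Most are secreted, and the membrane-type MMPs are held at the cell surface. ADAMs are transmembrane proteins, and those with an active protease domain release the outer part of receptors, growth factors and adhesion molecules, a step called shedding. ADAMTS enzymes are secreted relatives that process procollagens or cleave proteoglycans, whereas ADAMTS-like proteins have no protease domain. TIMPs bind the active site of MMPs, and TIMP3 also inhibits several ADAM and ADAMTS enzymes. In the liver these families are known for the turnover of matrix around bile ducts and for fibrosis. Sox9 marks the biliary epithelium and takes part in bile duct formation.

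The libraries held 11883496 to 16191990 reads assigned to genes, and 60 to 64 of the members had at least 1 read in a given sample. Values by sample are given in the order of replicates 1, 2 and 3, as normalized read counts (reads over a size factor of the library). Sox9 itself was 6211, 6043 and 6293 in the Control samples and 3363, 3165 and 3340 in the Sox9cKO samples (log2 fold change −0.91 ± 0.095 SE, limma, adjusted p = 0.00501). Its transcript was lower but still present in each Sox9cKO sample. The biliary identity given by the labels was checked on 10 markers, all of which were detected, with a summed level of 73166 to 110996 in the Control samples and 69209 to 97997 in the Sox9cKO samples. Krt7 was called higher, and with the replicate block Spp1 was among the markers called lower. Endothelial markers were also present and differed widely between samples of one group. Their sum was 10536, 32870 and 1500 in the Control samples and 25814, 33502 and 5440 in the Sox9cKO samples, with none of the 10 at 0. None was called without the replicate block, and Vwf was called higher with it (limma, adjusted p = 0.208 without and 0.0420 with the block). The median log2 fold change of the 10 endothelial markers was 1.04, Sox9cKO minus Control, against 0.036 over all genes tested. In bulk samples, fewer cells of a type and less RNA per cell cannot be told apart.

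Fold changes below are log2 differences of Sox9cKO minus Control with their SE, from limma on log2(value + 1) with 3 samples per group. P-values were adjusted by the Benjamini-Hochberg method over all genes tested, and a gene was called at an adjusted p under 0.05. A second fit added the replicate number as a block, since samples with the same number deviated together over all genes tested. The p or the count of calls of this second fit is given where it changes a call. Nothing in the labels says how the replicates were obtained, so the p-values measure only the spread between these samples, which may be technical.

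The starts of 3 genes are shown first: Mmp14, the member called in both fits, Mmp7, which had the largest fold change among the tested members, and Adamts1, which had the highest level per kilobase of exon. Each sequence is the 250 bases before the RefSeq start on the strand of the gene (build GRCm38.p6), with Mmp14 at chr14:54431348-54431597 (plus strand), Mmp7 at chr9:7691840-7692089 (plus strand) and Adamts1 at chr16:85803114-85803363 (minus strand). Capitals mark matches to 3 motifs, searched on both strands. The letters of the TATA box were TATAAA. The site of AP-1 factors was searched as TGANTCA. The letters of the GC box were GGGCGG.
Mmp14: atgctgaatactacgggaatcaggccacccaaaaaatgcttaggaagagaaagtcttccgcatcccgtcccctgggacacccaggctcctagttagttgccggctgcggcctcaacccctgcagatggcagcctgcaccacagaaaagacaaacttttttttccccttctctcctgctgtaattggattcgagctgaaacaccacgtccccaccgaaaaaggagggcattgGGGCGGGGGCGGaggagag
Mmp7: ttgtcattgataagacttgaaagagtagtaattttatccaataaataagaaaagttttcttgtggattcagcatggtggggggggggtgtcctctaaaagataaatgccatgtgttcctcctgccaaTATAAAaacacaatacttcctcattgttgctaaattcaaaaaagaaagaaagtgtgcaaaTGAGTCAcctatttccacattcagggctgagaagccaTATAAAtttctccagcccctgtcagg
Adamts1: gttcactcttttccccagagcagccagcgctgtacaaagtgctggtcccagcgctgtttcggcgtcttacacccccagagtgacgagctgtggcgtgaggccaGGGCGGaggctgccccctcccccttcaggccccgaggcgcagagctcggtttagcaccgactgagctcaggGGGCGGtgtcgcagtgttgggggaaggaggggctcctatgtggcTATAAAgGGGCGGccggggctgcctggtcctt
Mmp14 held 2 GC boxes, beginning 19 and 13 bases before the start, and no TATAAA. Mmp7 held TATAAA at 123 and 26 bases before the start, and the AP-1 motif at 63 bases. RefSeq gives Mmp7 a second start, whose window (chr9:7692091-7692340) is not shown and held none of the 3 motifs. Adamts1 held TATAAA at 32 bases and GC boxes at 147, 76 and 25 bases. None of these matches overlapped another. TATAAA was found in 12.4% of 32851 RefSeq promoters of the same length, the AP-1 motif in 6.75% and the GC box in 32.7%. Of the 39 members with a RefSeq promoter, 5 had TATAAA (Adamts1, Adamtsl2, Mmp7, Mmp13 and Mmp21), 4 had the AP-1 motif (Adam19, Mmp7, Mmp12 and Mmp13) and 24 had a GC box. The core letters bound by SOX proteins, ACAAT, occurred in 27.7% of all promoters and in 8 of the 39 members. In the window shown, Mmp7 held 2 of them, 114 and 101 bases before the start, and neither Mmp14 nor Adamts1 held any in theirs. The window at the second Mmp7 start held a match to ACAAT at 229 bases. The percentages count single promoter windows, whereas a member counted once if any of its windows matched (44 windows for the 39 members). A match is a description of the letters and shows no binding.

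Of the 64 members, 49 reached the mean of 10 normalized reads needed for a test. The 15 others, among them Mmp9, Mmp12, Mmp13, Adam28 and Timp4, had between 10 and 57 reads over all 6 samples together. Levels between genes were compared per kilobase of exon. Adamts1 was highest at a mean of 1238 normalized reads per kilobase over the 6 samples, while in reads not divided by length Adamts9 stood above it (mean 7139 against 6563). It was followed by Timp2 (595 reads per kilobase), Adamts9 (474), Mmp7 (424), Timp3 (402), Adam10 (369), Mmp15 (320), Adam9 (304) and Mmp14 (290). The spread between samples is shown in the plot of levels per kilobase.

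**Figure D1:**
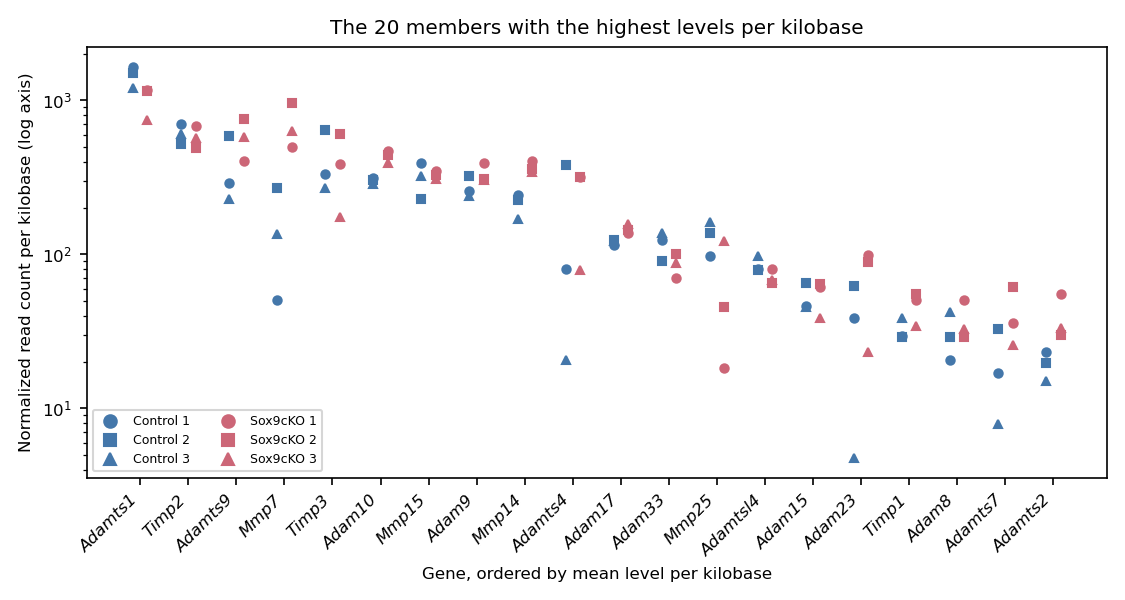
Normalized read counts per kilobase of exon (log axis) for the 20 members with the highest mean level, 1 point per sample, Control and Sox9cKO samples marked by colour. Adamts1 stands highest with a mean of 1238 reads per kilobase, and all 3 Sox9cKO points of Mmp7 stand above its Control points.

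Among all 17153 genes tested, limma called 510, or 2.97%, with 349 (2.03%) higher and 161 (0.939%) lower. Among the members 1 of 49 was called, Mmp14, which rose, and no member fell. The members' share of 2.04% thus lay near the background. With the replicate block 1381 genes were called (8.05%), and 14 of the 49 members were among them (28.6%). Higher were 9, against 5.06% of all genes, namely Mmp7, Mmp14, Adam10, Adam11, Adam23, Adamts2, Adamts7, Adamts14 and Adamtsl1. Lower were 5, against 2.99% of all genes, namely Mmp25, Adam30, Adamts1, Adamts16 and Adamts17.

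The count tests gave other numbers. edgeR called none of the 49 members (17 had an unadjusted p under 0.05; 2.86% of all genes were called) and DESeq2 called 6 (7.08% of all genes). edgeR with the block called 8 members, 6 higher and 2 lower (Adamts1 and Adamts16), against 6.76% of all genes. The block calls of Mmp25, Adam11, Adam23, Adam30, Adamts17 and Adamtsl1 were therefore lost in edgeR with the same block, at adjusted p from 0.0552 (Adam11) to 0.0634 (Adamts17). An unadjusted limma p under 0.05 was found for 17 of 49 members (34.7%) and for 17.8% of all genes tested. The median log2 fold change of the members was 0.26, against 0.036 over all genes tested, with 29 positive and 20 negative. The groups did not overlap in 18 of the 49 (36.7%), 10 higher and 8 lower, against 24.2% of all genes tested (13.4% higher, 10.8% lower).

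**Figure D2:**
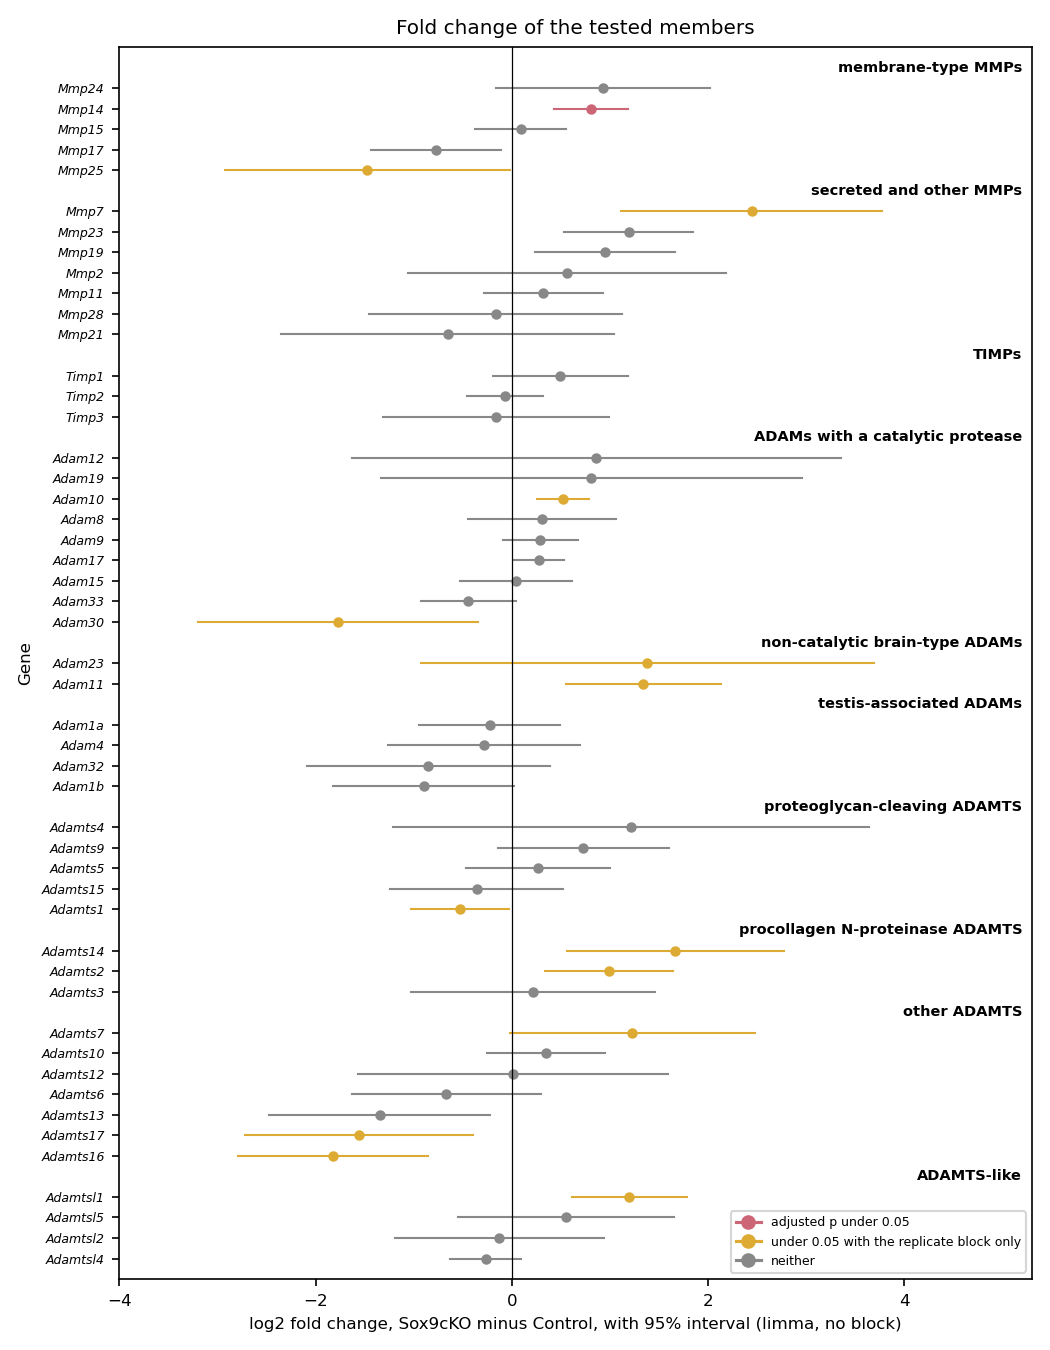
Log2 fold change (Sox9cKO minus Control) with its 95% interval for the 49 tested members, coloured by whether the gene was called by limma, only with the replicate block, or by neither. Mmp14 is the single gene called without the block, and 13 more pass with it, 8 to the right and 5 to the left of 0.

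The membrane-type MMPs had 5 tested members out of 6. Mmp14, which encodes MT1-MMP, a collagenase of the cell surface that also activates pro-MMP2, was 1443, 1350 and 1005 in the Control samples and 2424, 2125 and 2033 in the Sox9cKO samples. Each Sox9cKO sample lay above each Control sample. Mmp14 rose by a log2 fold change of 0.81 ± 0.16 (adjusted p = 0.0495), and with the replicate block the adjusted p was 0.00939. The call lay at the edge of the threshold: leaving out any one of the 6 samples gave adjusted p from 0.0823 (without Control 2) to 0.127 (without Sox9cKO 1), with fold changes between 0.65 and 0.91. It was also lost with edgeR (adjusted p = 0.0567) and with a pseudocount of 0.1.

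Summed markers of some other cells were also higher in the Sox9cKO samples. The summed leukocyte markers were 5214 to 5718 in Control and 6886 to 8847 in Sox9cKO samples, with 7 of 10 in the table and 1 of 6 tested called (Csf1r, higher, which macrophages express). The leukocyte markers S100a8, S100a9 and Cd3e had no row. The stellate cell and fibroblast sum was 3398 to 4016 against 4064 to 5377 (12 of 12 in the table, 0 of 11 tested called, Thy1 at 0 in 1 Control sample), and the mesothelial sum 954 to 983 against 1158 to 2173 (1 of 6 tested called, Msln, higher). The higher leukocyte sum came from Cd14 (mean 4456 in Control and 6171 in Sox9cKO samples) and Csf1r (761 and 1450). The other 5 leukocyte markers in the table had lower means in Sox9cKO, among them Ptprc (30.9 and 10.1) and Cd68 (163 and 124), which did not overlap between groups and were not called. The mesothelial sum rose mainly through Msln (mean 335 in Control and 1408 in Sox9cKO samples). Wt1 and Upk1b were also higher in mean, while Upk3b (73.5 and 41.2), Gpm6a (475 and 294) and Lrrn4 were lower. In the stellate list Reln (1705 and 2316), Col1a1, Col3a1, Pdgfrb, Acta2 and Thy1 had higher means. Col1a1 and Col3a1 were highest in Sox9cKO 1. Lrat, Dcn, Des, Rgs5, Colec11 and Ngfr had lower means. Over single markers the lists had a median log2 fold change of −0.42 for the leukocyte, −0.15 for the stellate and −0.15 for the mesothelial list. The part of these cells in the Mmp14 difference was not tested.

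Mmp15, which encodes another transmembrane MMP, was the most abundant membrane-type gene in reads in the Control group, at 2111, 1233 and 1744 in Control and 1866, 1756 and 1660 in Sox9cKO samples. The groups overlapped (log2 fold change 0.087 ± 0.20, 95% interval −0.37 to 0.55, adjusted p = 0.866). Mmp25, a membrane-type MMP held by a lipid anchor and known from neutrophils, was 517, 730 and 862 in Control samples and 96.5, 241 and 646 in Sox9cKO samples. It was lower within each numbered pair, but Sox9cKO 3 lay above Control 1, so the groups overlapped. Its log2 fold change of −1.47 ± 0.62 was called in limma only with the block (adjusted p = 0.273 without and 0.0476 with it), and edgeR with the block gave an adjusted p of 0.0620. Mmp17, the other lipid-anchored gene, was 28.8 to 40.8 in Control and 17.0 to 20.9 in Sox9cKO samples, without overlap, and was not called (log2 fold change −0.78 ± 0.28, adjusted p = 0.213).

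Among the secreted and other MMPs, 7 of 10 were tested and none was called without the block. Mmp7 encodes matrilysin, a small MMP of glandular epithelia that lacks the hemopexin domain. It was 53.8, 289 and 144 in the Control samples and 534, 1023 and 673 in the Sox9cKO samples. Every Sox9cKO sample lay above every Control sample, and the group means were 162 ± 118 and 743 ± 252 (SD, n = 3 each), a ratio of 4.58. Its log2 fold change was 2.44 ± 0.57, with an adjusted p of 0.0766 without and 0.00416 with the block. Control 2, the highest Control sample, decided the call: without it the log2 fold change was 3.01 (adjusted p = 0.0245). An antisense gene (AV064505) overlaps Mmp7 in the GENCODE M21 annotation, and whether counting used the strand is not given in the sources used here.

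The gelatinase gene Mmp2, whose product MT1-MMP activates, was low and variable. It was 37.0, 45.5 and 18.4 in Control and 119, 50.1 and 17.0 in Sox9cKO samples, with overlap (log2 fold change 0.56 ± 0.69, adjusted p = 0.729). Mmp9, the other gelatinase gene, did not reach 15 normalized reads in any sample and was not tested. Mmp23 and Mmp19, both of low level, did not overlap between groups. Mmp23 was 17.3 to 24.4 in Control and 42.8 to 61.1 in Sox9cKO samples (log2 fold change 1.19 ± 0.28, adjusted p = 0.0787, 0.0630 with the block). The interstitial collagenase and elastase genes Mmp13 and Mmp12 had 14 and 17 reads over all samples.

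The TIMP genes were not called in either fit. Timp2, whose product both inhibits MT1-MMP and takes part in pro-MMP2 activation by it, was 2750, 2034 and 2341 in Control and 2652, 1922 and 2213 in Sox9cKO samples. The groups overlapped throughout their range (log2 fold change −0.072 ± 0.16, 95% interval −0.46 to 0.32, adjusted p = 0.870). Timp3, whose product stays bound to the matrix, varied between samples of a group more than between groups. It was 2699, 5222 and 2198 in Control and 3143, 4963 and 1421 in Sox9cKO samples (log2 fold change −0.16 ± 0.49, 95% interval −1.31 to 0.99, adjusted p = 0.906). Its highest and lowest samples in each group were those with the highest and lowest endothelial marker sums. With that sum as a covariate in limma, the log2 fold change of Timp3 was −0.55 (adjusted p = 0.326). The part of endothelial cells in these values was not tested further.

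Timp1 was 26.1, 26.0 and 34.6 in Control and 44.8, 49.1 and 30.6 in Sox9cKO samples, with Sox9cKO 3 inside the Control range (log2 fold change 0.49 ± 0.29, 95% interval −0.19 to 1.18, adjusted p = 0.440). Timp4 had 12 reads in all and was not tested. Timp1, Timp3 and Timp4 each lie within a synapsin gene on the opposite strand in GENCODE M21. Timp2 is overlapped there by Cep295nl, a protein-coding gene on the same strand. The ratio of Mmp14 to Timp2, both per kilobase, was 0.343, 0.434 and 0.281 in Control and 0.597, 0.723 and 0.601 in Sox9cKO samples. This ratio is a description of a pair chosen after its values were seen.

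Of the ADAMs with a catalytic domain, 9 of 11 were tested and 7 had a positive fold change. Adam10 encodes the main sheddase of Notch receptors, cadherins and several growth factors. It was 1545, 1504 and 1414 in Control and 2321, 2168 and 1930 in Sox9cKO samples, with no overlap. The log2 fold change was 0.52 ± 0.11, and the adjusted p was 0.0631 without and 0.0244 with the block. Adam17, which encodes the sheddase of TNF and of ligands of the EGF receptor, was 822, 890 and 879 in Control and 990, 1034 and 1121 in Sox9cKO samples. The groups did not overlap, and the gene was not called (log2 fold change 0.28 ± 0.11, adjusted p = 0.245).

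Adam9, a widely expressed sheddase gene, was 986 to 1332 in Control and 1246 to 1623 in Sox9cKO samples, with overlap (log2 fold change 0.29 ± 0.16, adjusted p = 0.418). Adam33 was 486 to 748 against 380 to 540, also with overlap (−0.45 ± 0.21, adjusted p = 0.320). Adam30 was 95.8, 99.3 and 151 in Control and 10.9, 47.3 and 63.4 in Sox9cKO samples. All Sox9cKO samples lay below all Control samples, by amounts that differed between pairs (log2 fold change −1.77 ± 0.61, adjusted p = 0.191 without and 0.0458 with the block). The 4 tested ADAMs grouped here as testis-associated (Adam1a, Adam1b, Adam4 and Adam32) had means of 9.19 to 66.4 in either sample group. Their fold changes were negative in the fit without a block, and none of these 4 was called in either fit.

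The ADAMs without protease activity that are known from brain gave 2 tested members, Adam23 and Adam11, which belong to the ADAMs that bind LGI proteins. Adam23 was 691, 1113 and 85.3 in Control and 1764, 1589 and 414 in Sox9cKO samples. Replicate 3 was far lower in both groups, so the ranges overlapped, while each pair had the higher value in Sox9cKO. The log2 fold change was 1.38 ± 0.98 (adjusted p = 0.528 without and 0.0398 with the block). With the endothelial marker sum as a covariate it was 0.49 (adjusted p = 0.309). Adam11 was 11.1 to 20.2 in Control and 30.2 to 43.8 in Sox9cKO samples, without overlap (log2 fold change 1.34 ± 0.34, adjusted p = 0.0952 without and 0.0434 with the block).

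**Figure D3:**
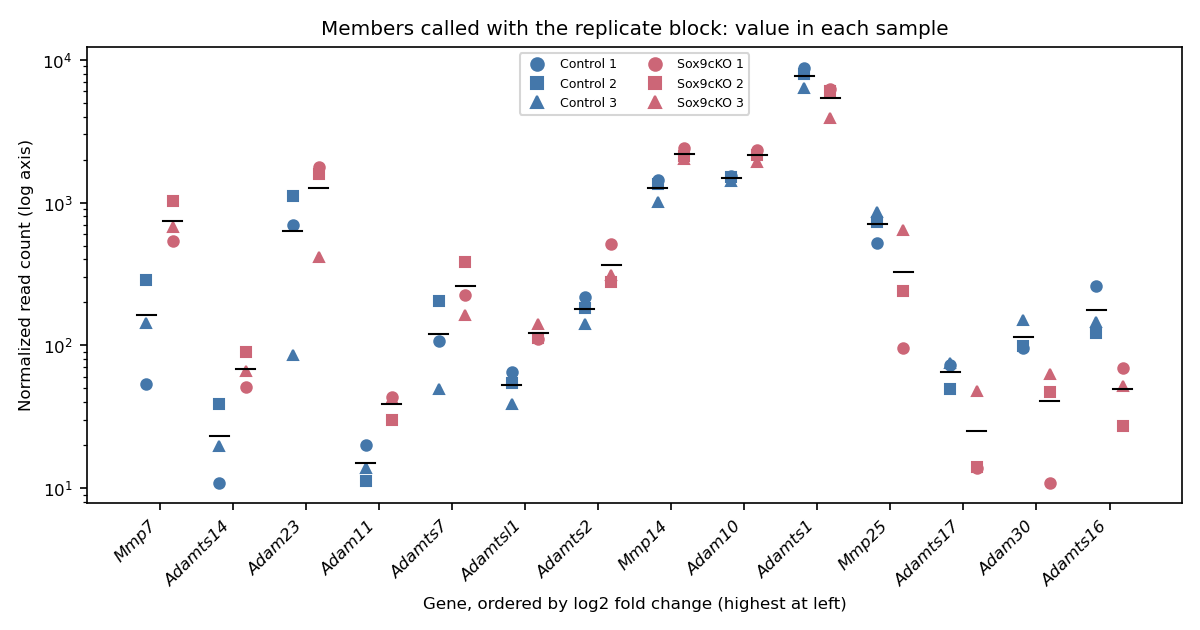
Normalized read counts (log axis) in each of the 3 Control and 3 Sox9cKO samples for the 14 members called with the replicate block, ordered by log2 fold change. Mmp7 at the left and Adamts16 at the right show separated groups, whereas the values of Adam23 and Mmp25 overlap between groups.

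The ADAMTS genes that cleave proteoglycans such as versican and aggrecan had 5 tested members out of 7, none called without the block. Adamts1 was 8789, 7992 and 6375 in Control and 6225, 6067 and 3929 in Sox9cKO samples. The highest Sox9cKO sample lay just below the lowest Control sample. The log2 fold change was −0.53 ± 0.21, with an adjusted p of 0.249 without and 0.0291 with the block, and the value was lower in Sox9cKO within all 3 numbered pairs. Adamts9, which also cleaves versican, was 4394, 8851 and 3433 in Control and 6096, 11318 and 8742 in Sox9cKO samples. It was higher in Sox9cKO within each pair, but the ranges overlapped and it passed in neither fit (log2 fold change 0.73 ± 0.37, adjusted p = 0.368 without and 0.0706 with the block).

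Adamts4 ranged more than any other of these genes, at 388, 1840 and 99.1 in Control and 1532, 1527 and 382 in Sox9cKO samples. Replicate 3 was lowest in both groups, as for the endothelial markers, and the groups overlapped (log2 fold change 1.21 ± 1.03, adjusted p = 0.606, and 0.28 with the endothelial covariate). Adamts5 and Adamts15 lay between 114 and 281 in all samples and overlapped between groups. Adamts1 and Adamts5, which are neighbours on chromosome 16, had fold changes of opposite sign (−0.53 and 0.26), of which the second was not called in either fit (adjusted p = 0.720).

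The procollagen N-proteinases, which remove the amino-terminal propeptide of fibrillar procollagens, had 3 tested members with positive fold changes. Adamts2 was 219, 183 and 141 in Control and 516, 278 and 309 in Sox9cKO samples, without overlap (log2 fold change 0.99 ± 0.28, adjusted p = 0.120 without and 0.0193 with the block). Adamts14 was 10.9, 39.0 and 19.6 in Control and 50.7, 89.8 and 65.7 in Sox9cKO samples, again without overlap. Its log2 fold change was 1.67 ± 0.47 (adjusted p = 0.124 without and 0.0198 with the block). Adamts3, the third of the group, overlapped between groups at 6.62 to 26.9 reads (adjusted p = 0.881). Adamts2 and Adamts16, described next, are overlapped by antisense genes, Adamts7 by Tbc1d2b and Adamtsl1 by Sh3gl2, so their reads are less certain than those of Mmp14, Adam10, Adamts1 and Adamts14, which no other gene overlaps.

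Of the other ADAMTS genes 7 of 9 were tested, 3 with positive and 4 with negative fold changes. Adamts16 was 261, 123 and 145 in Control and 69.6, 27.4 and 52.1 in Sox9cKO samples. No sample of one group reached the other (log2 fold change −1.82 ± 0.41), and the adjusted p was 0.0707 without and 0.00484 with the block. Adamts17, which with Adamts10 belongs to the ADAMTS genes linked to fibrillin microfibrils, was 72.3, 49.2 and 74.9 in Control and 13.9, 14.2 and 47.6 in Sox9cKO samples. Sox9cKO 3 lay just under the lowest Control sample. For Adamts17 the log2 fold change was −1.56 ± 0.50 (adjusted p = 0.162 without and 0.0495 with the block), and without Sox9cKO 3 it was −2.12 (adjusted p = 0.0373).

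Adamts7, whose product cleaves cartilage oligomeric matrix protein, was 107, 206 and 49.5 in Control and 226, 387 and 163 in Sox9cKO samples. The samples of both groups had the same order, that of the endothelial markers, and the ranges overlapped. Its log2 fold change was 1.23 ± 0.53 (adjusted p = 0.291 without and 0.0167 with the block) and 0.77 with the endothelial covariate (adjusted p = 0.115). Adamts13, which cleaves von Willebrand factor and is known from hepatic stellate cells, was 16.1 to 47.3 in Control and 6.62 to 10.9 in Sox9cKO samples. The groups did not overlap, and it was not called (log2 fold change −1.35 ± 0.48, adjusted p = 0.204).

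Among the ADAMTS-like genes, 4 of 5 were tested. Adamtsl1 was 65.6, 54.8 and 39.2 in Control and 110, 113 and 140 in Sox9cKO samples, without overlap (log2 fold change 1.20 ± 0.25, adjusted p = 0.0559 without and 0.0399 with the block). Adamtsl4, whose product binds fibrillin, was the most abundant of them at 334 to 413 in Control and 275 to 338 in Sox9cKO samples. The ranges overlapped, with Sox9cKO 1 above 2 of the Control samples, and it was not called (−0.27 ± 0.15, adjusted p = 0.428).

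**Figure D4:**
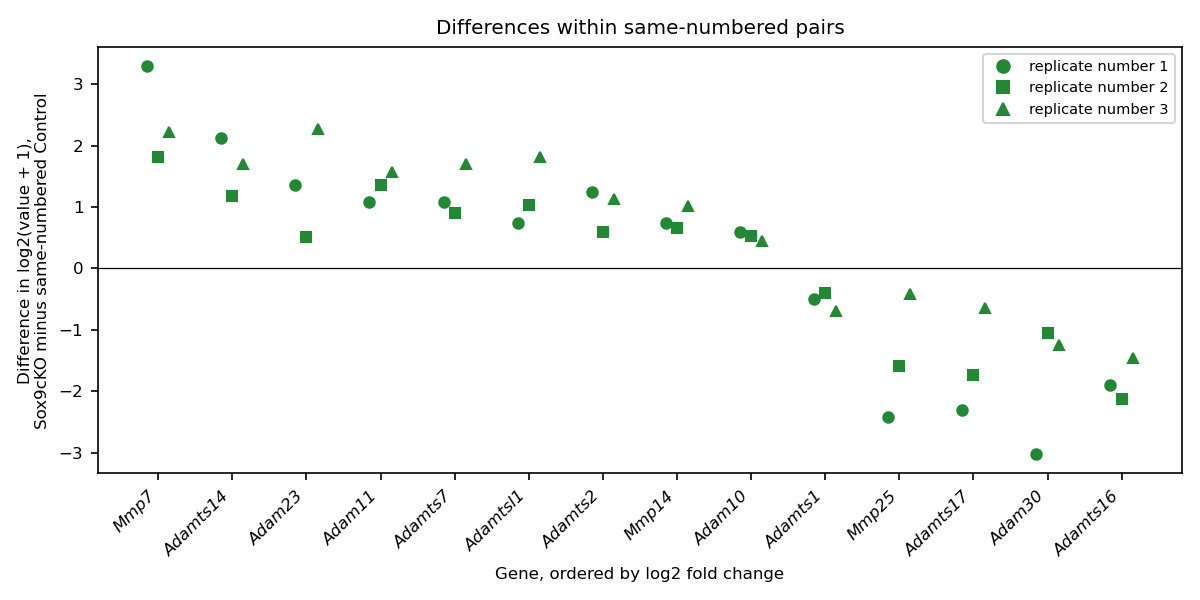
Log2 difference of Sox9cKO minus Control within each same-numbered pair for the 14 members called with the replicate block, 1 marker per pair. All 3 differences of a gene share their sign, which choosing the genes by the block fit favours. They run from 1.82 to 3.29 for Mmp7 and from −0.40 to −0.70 for Adamts1.

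The endothelial sums set the samples in the order 2, 1, 3 within both groups. Among the tested members 6 of 49 had that order in both groups (12.2%), namely Timp3, Adam15, Adam19, Adamts7, Adamts10 and Adamts12, against 8.12% of all genes tested. Adam19 was 82.4, 199 and 24.2 in Control and 230, 240 and 39.6 in Sox9cKO samples. Its log2 fold change was 0.81 ± 0.91 (adjusted p = 0.704) and −0.0029 with the covariate. For Mmp14 (0.71, adjusted p = 0.0338) the call held with this covariate, and for Mmp7 (2.30, adjusted p = 0.0775) the gene again missed the threshold. With the covariate 1 of 49 members was called, against 3.78% of all genes. The covariate was added after the data were seen and takes one more degree of freedom from a fit of 6 samples.

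**Figure D5:**
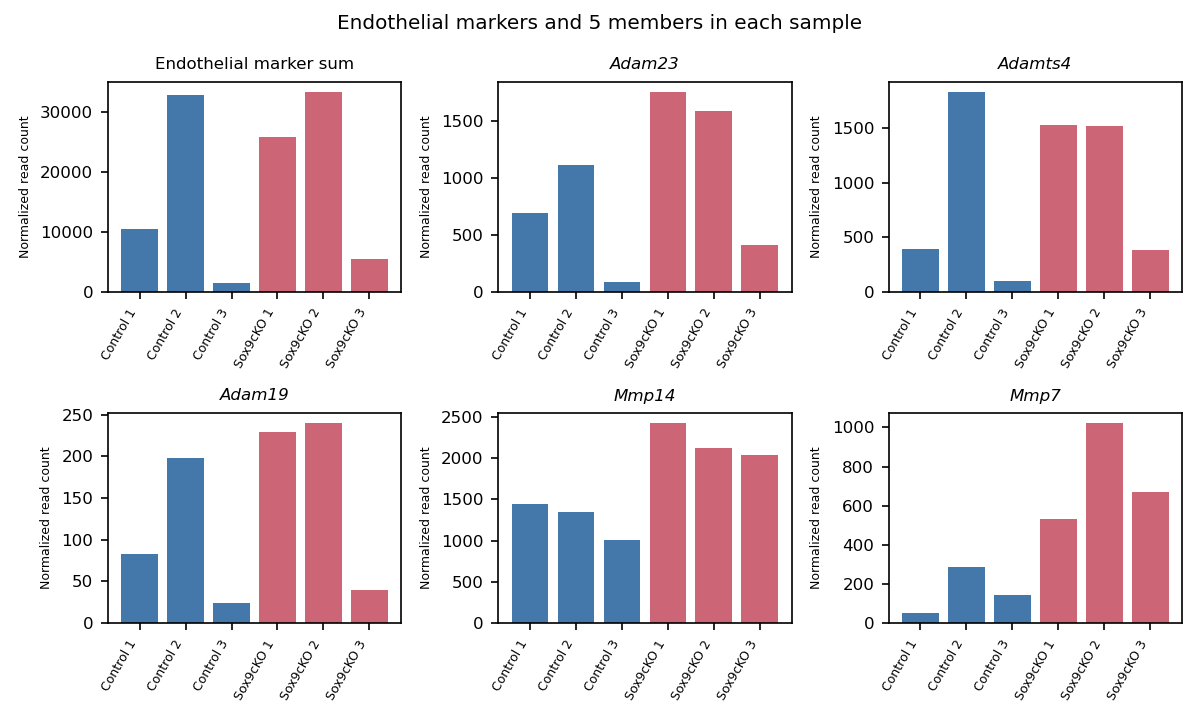
Normalized read counts in each sample (bars from 0) of the summed 10 endothelial markers and of 5 members. Replicate 3 is the lowest sample for the marker sum in both groups, at 1500 and 5440, and Adam23 has its lowest values in the same samples.

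The wider system around these enzymes was described with 5 lists of genes. Among all genes tested, 2.03% were called higher and 0.939% lower without the block, and 5.06% and 2.99% with it. Regulators of activation and shedding, such as proprotein convertases, tetraspanins and rhomboid-related proteins, had 19 tested genes, of which 1 was called without the block, higher (median log2 fold change 0.20). With the block 2 were called higher and 1 lower. Called in both fits was Pcsk6, a proprotein convertase gene, at 26.1, 26.9 and 28.8 in Control and 97.5, 114 and 135 in Sox9cKO samples. Its groups stood far apart (log2 fold change 2.03 ± 0.22, adjusted p = 0.00553). Pcsk5, another proprotein convertase gene, was 296, 138 and 254 in Control and 87.6, 67.1 and 114 in Sox9cKO samples. Its groups did not overlap either, in the opposite direction (log2 fold change −1.31 ± 0.33, adjusted p = 0.0963 without and 0.0127 with the block).

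The plasminogen system produces plasmin, a protease able to activate several pro-MMPs. Of its 13 tested genes, 6 were called higher and none lower, against 2.03% and 0.939% of all genes tested. Their median log2 fold change was 1.67. With the block 8 were called, all higher, against 5.06% higher and 2.99% lower over all genes. Plg, which encodes plasminogen, was 146, 120 and 74.9 in Control and 1025, 847 and 1224 in Sox9cKO samples (log2 fold change 3.21 ± 0.27, adjusted p = 0.00319). F12, the gene of coagulation factor XII, was 13.5 to 32.5 in Control and 281 to 513 in Sox9cKO samples (4.19 ± 0.37, adjusted p = 0.00333). Neither gene overlapped between groups. Plg and F12 are abundant in hepatocytes, whose marker sum was 22676 to 35319 in Control and 29875 to 45717 in Sox9cKO samples, with overlap, all 10 markers in the table and 1 of 9 tested called (Tat, higher). With the block Hnf4a was called higher as well (0.75 ± 0.22, adjusted p = 0.131 without and 0.0170 with the block), and its groups did not overlap. The part of hepatocyte RNA in these values was not tested.

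Plau, the gene of the urokinase plasminogen activator, was 242, 598 and 300 in Control and 1244, 1349 and 1179 in Sox9cKO samples. Its log2 fold change was 1.83 ± 0.31 (adjusted p = 0.0277), and the call was lost in 5 of the 6 fits that left out 1 sample, up to an adjusted p of 0.104.

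Among 20 tested genes of other matrix proteases and inhibitors, 1 was called without the block, higher (median 0.27). With the block 5 were called higher and 2 lower. The shares over all genes tested were 2.03% higher and 0.939% lower without the block, and 5.06% and 2.99% with it. Called in both fits was Bmp1, whose product removes the carboxy-terminal propeptide of procollagens. It was 630, 597 and 676 in Control and 953, 1279 and 1192 in Sox9cKO samples, without overlap (log2 fold change 0.84 ± 0.14, adjusted p = 0.0285), and was called in 1 of the 6 fits that left out 1 sample. The 2 lower with the block were Tll2, of the same family as Bmp1, and Mme, which encodes neprilysin. Tll2 was 77.3 to 197 in Control and 12.9 to 65.7 in Sox9cKO samples, without overlap (log2 fold change −2.22 ± 0.62, adjusted p = 0.120 without and 0.00681 with the block). Mme overlapped between groups and was lower within each pair (−1.10 ± 0.38, adjusted p = 0.191 without and 0.00233 with the block).

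Of 28 tested substrates of ADAM shedding, 5 were called higher and none lower (median 0.41), against 2.03% and 0.939% of all genes. With the block 7 were called, all higher, against 5.06% higher and 2.99% lower over all genes. Tnfrsf1b, a TNF receptor gene, was 630, 658 and 505 in Control and 1356, 2149 and 1328 in Sox9cKO samples (log2 fold change 1.40 ± 0.21, adjusted p = 0.0185). Il6ra, the gene of the interleukin 6 receptor chain, was 111 to 133 in Control and 209 to 298 in Sox9cKO samples (1.12 ± 0.19, adjusted p = 0.0274). Neither gene overlapped between groups. Nrg1, an ERBB ligand gene, had a log2 fold change of 1.27 ± 0.22 (adjusted p = 0.0296), and the cytokine gene Tnf one of 1.33 ± 0.23 (adjusted p = 0.0312). These 4 calls were lost when single samples were left out, in 2 of 6 fits for Tnfrsf1b and in 5 of 6 for each of the others.

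Of 29 tested matrix substrates of ADAMTS and MMP enzymes, 1 was called higher and none lower (median 0.45), against 2.03% and 0.939% of all genes. Fn1, which encodes fibronectin, was 12574, 9628 and 13164 in Control and 42616, 41711 and 45986 in Sox9cKO samples. All Sox9cKO samples lay above all Control samples (log2 fold change 1.89 ± 0.15, adjusted p = 0.00261). With the block, 6 of the 29 substrate genes were called, all higher, against 5.06% of all genes called higher and 2.99% lower. The 5 lists overlap in purpose with the members, and none is independent evidence of a direction.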

How the data were processed

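RNA from biliary epithelial cells of mouse liver was sequenced in 3 Control and 3 Sox9cKO samples, from ribosome-depleted total RNA with a stranded kit that carries unique molecular identifiers, per the labels' protocols. The authors deposited a signal per gene, that is, gene counts divided by one size factor per sample, and the submitters' processing notes name GRCm39 and DESeq2 1.36.0. Dividing by each sample's step gave whole reads for 100% of values (tolerance 0.001 reads). Aligner, counter, annotation and the use of strand and identifiers are not given in the sources used here. The table holds no gene under 10 reads in total. RefSeq lists 85 symbols that match the rule, of which 21 had no row under that symbol in the deposited values and so were not analysed here.

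Values were tested as log2(value + 1) with limma 3.58.1 in R 4.3.3 (eBayes with trend, two-sided), for every gene whose average over all 6 samples reached 10 normalized reads, with Benjamini-Hochberg adjustment over all of them. The pseudocount of 1 makes the fold changes of rarely read genes too small. Alternatives were edgeR 4.0.16 (quasi-likelihood) and DESeq2 1.42.0 on the recovered reads, TMM factors, no filter, a higher filter (mean of 50), pseudocounts of 0.1 and 5, 6 fits without 1 sample each and the replicate block. An endothelial covariate and a fit without both samples numbered 3 were added after the data were seen. No label states a pairing, and the replicate numbers in the titles were taken as pairs from the data. Across 17153 genes, deviations from the group means correlated at 0.207, 0.472 and 0.542 within the 3 same-numbered pairs, all above 0.1. Across the 49 tested members they correlated at 0.0952, 0.457 and 0.653. For the members, Control 2 with Sox9cKO 1 gave 0.398, more than the pair numbered 1. The scripts were tested on simulated data. The false share of calls there was 7.04% for limma, 8.75% for edgeR, 12.1% for limma with the replicate block and 26.3% for DESeq2. Each share lay above the adjusted p threshold for a call. In that simulation calls of the limma block fit and of DESeq2 were thus less reliable than those of limma without the block.

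Members and lists were chosen with earlier results of these data known. Named were the members called in either limma fit or by edgeR, Timp1 to Timp4, the 15 of highest mean, the 6 of largest uncalled fold change, at most 4 called genes per list and Sox9. Some list genes are not reported here. Any other gene named was picked with its values in view. Exon lengths and overlaps came from GENCODE M21, and promoters from RefSeq GRCm38.p6, in which 39 of the 64 members had one. No coordinates of the deposited table were used.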

Additional observations from a re-analysis of the deposited data

How the results depend on the processing

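The count of called members was 1 with limma, a pseudocount of 5, no filter (64 tested), a minimum mean of 50 (29 tested), TMM factors and the endothelial covariate, each time Mmp14. It was 0 with a pseudocount of 0.1 (17 members at an unadjusted p under 0.05; 490 genes called) and 0 with edgeR (17 unadjusted). DESeq2 called 6 members and 1214 genes, limma with the replicate block 14 and 1381, and edgeR with the replicate block 8 and 1160. Fits without 1 sample called 0 to 1 members, Mmp14 never among them, and 199 to 387 genes. Without both samples numbered 3, limma called 52 genes and 0 members (16 unadjusted), and Sox9 kept its log2 fold change of −0.91 but not its call (adjusted p = 0.0970). Sox9 was called under the 16 other alternatives, with log2 fold changes from −0.96 to −0.88 (−0.93 to −0.88 without 1 sample). The replicate block kept every call of a list gene named in the report. With it Pcsk5, Tll2, Mme and the markers Hnf4a, Spp1 and Vwf were called as well.

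Of 813 member results under alternatives, 784 kept their direction, and the 14 genes that changed sign somewhere, Timp2, Timp3, Mmp15 and Mmp2 among them, were called nowhere. With 3 samples a group, members with few reads or wide spread are limited most: the median SE was 0.39 for the tested members and 0.24 for all genes. Read numbers limit the 15 untested members. No cause of these shifts was tested.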
